A study of Mus musculus with 6 samples.

Results

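The genes described here are 10 transcripts of the stress response run by the transcription factors ATF4 and CHOP: Ddit3, Atf3, Chac1, Trib3, Atf4, Ddit4, Sesn2, Atf5, Ppp1r15a and Asns. They were chosen by name, with earlier results of these data known, from 22180 genes measured on Affymetrix arrays. Each gene was read by the probe sets that the platform annotation assigns to that symbol alone. All 10 had 1 such probe set. The arrays held RNA of primary lung fibroblast cultures of wild-type male C57BL/6 mice aged 8 weeks, 3 wells with purmorphamine and 3 wells with vehicle. Purmorphamine is a small-molecule agonist of the Hedgehog pathway that acts on Smoothened. It was given for 24 h at a dose written as 5um in the labels and taken here as 5 µM, and the vehicle is not named. Fibroblasts were enriched from digested whole lung, split into wells and cultured with fetal calf serum for at most 3 passages. The labels do not say how many mice or pools the wells came from, so p-values reflect variation among wells only, and that variation may be technical.

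In the integrated stress response, kinases that sense unfolded proteins, missing amino acids, heme shortage or viral RNA phosphorylate the translation factor eIF2. Most translation then falls, while the Atf4 mRNA is translated more. ATF4 pairs with C/EBP and other bZIP proteins and switches on genes of amino acid supply, CHOP (the product of Ddit3) and feedback factors that end the response. In lung fibroblasts ATF4 is known for supplying amino acids to collagen synthesis. Arrays measure transcript levels, so neither eIF2 phosphorylation nor ATF4 protein was measured.

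Every one of the 10 genes was higher in purmorphamine wells than in vehicle wells, and all 10 passed the test, limma with Benjamini-Hochberg adjustment over all genes at an adjusted p under 0.05. Among all genes tested, 7.18% were called higher. Because the genes were chosen with earlier results of these data known, this contrast is a description and not a test. The rises ran from 1.28-fold for Asns to 2.26-fold for Ddit3, with a median difference of 0.57 on the log2 scale against -0.01 over all genes. In all 10 genes the 3 purmorphamine values lay above the 3 vehicle values, which was so for 17.1% of all genes. Ddit3, Atf3, Chac1, Trib3 and Atf4 both passed the test and rose by at least 1.5-fold, as did 0.965% of all genes. These are values of whole cultures, in which fewer cells of a type and less RNA per cell cannot be told apart.

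The promoters are shown for the members that held 1 of 4 motifs bound by such factors. The motifs were settled after the matches of 7 first letter strings had been seen, so which members match is a description made with the letters in view. RefSeq windows of GRCm38.p6, 250 bases before to 50 bases after the transcription start, were matched by symbol for all 10 genes, with 2 windows for Atf5 and so 11 in all. The motif TGATGNAA, the core of the C/EBP-ATF response element through which ATF4 acts, was found on either strand in the windows of Atf3, Chac1, Trib3 and Asns. Of all 32851 windows 3.97% hold it. The cyclic AMP response element TGACGTCA, a site of ATF and CREB factors that reads the same on both strands, was found in the Ppp1r15a window and in 1.79% of all windows. The endoplasmic reticulum stress element and the composite motif of CHOP paired with C/EBP were also searched on both strands, as exact strings only. Exact matches were in none of the 11 windows and in 0.119% and 0.204% of all windows. Near matches were not searched, so the windows may still hold variants of these elements. The Ddit3 window, not printed here, holds on the opposite strand a stretch that differs from the stress element string by 1 base. The stretches from 220 bases before to 30 bases after the start follow, on the strand of the gene, with the matched letters in capitals.
Atf3, chr1:191183304-191183553, minus strand: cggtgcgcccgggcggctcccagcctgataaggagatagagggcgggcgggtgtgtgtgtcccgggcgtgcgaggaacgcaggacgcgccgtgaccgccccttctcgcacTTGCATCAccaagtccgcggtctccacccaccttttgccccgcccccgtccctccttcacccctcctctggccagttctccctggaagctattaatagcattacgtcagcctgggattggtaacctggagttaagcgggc
Chac1, chr2:119351022-119351271, plus strand: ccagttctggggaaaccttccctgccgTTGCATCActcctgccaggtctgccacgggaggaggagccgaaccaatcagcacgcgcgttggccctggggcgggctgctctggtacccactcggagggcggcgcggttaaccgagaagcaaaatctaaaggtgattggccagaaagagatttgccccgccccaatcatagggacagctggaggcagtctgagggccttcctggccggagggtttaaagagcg
Trib3, chr2:152344031-152344280, minus strand: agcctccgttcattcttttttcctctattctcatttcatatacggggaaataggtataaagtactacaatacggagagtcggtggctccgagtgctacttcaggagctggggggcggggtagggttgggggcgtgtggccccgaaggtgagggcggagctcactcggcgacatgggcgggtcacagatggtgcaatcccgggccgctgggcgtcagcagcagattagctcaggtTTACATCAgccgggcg
Asns, chr6:7693180-7693429, minus strand: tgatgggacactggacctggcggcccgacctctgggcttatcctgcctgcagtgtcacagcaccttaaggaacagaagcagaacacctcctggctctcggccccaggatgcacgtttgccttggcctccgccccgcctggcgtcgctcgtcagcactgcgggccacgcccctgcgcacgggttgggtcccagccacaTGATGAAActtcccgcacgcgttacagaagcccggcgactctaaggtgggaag
Ppp1r15a, chr7:45526239-45526488, minus strand: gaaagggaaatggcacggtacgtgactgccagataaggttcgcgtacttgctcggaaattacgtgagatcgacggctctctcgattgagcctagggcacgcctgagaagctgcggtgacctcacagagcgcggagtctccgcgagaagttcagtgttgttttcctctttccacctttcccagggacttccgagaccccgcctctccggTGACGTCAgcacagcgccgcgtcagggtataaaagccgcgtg
The match begins at position -110 in Atf3, -193 in Chac1, 15 in Trib3, -23 in Asns and -12 in Ppp1r15a, counted from 1 at the start, with -1 just before it. It reads TGATGNAA on the opposite strand in Atf3, Chac1 and Trib3 and on the strand of the gene in Asns. Of the first strings, TGCAATCCC, taken for the CHOP motif, was found at -30 in Trib3 and in 0.213% of all windows. It was then exchanged for the composite motif with 1 more base, which is closer to the published one and which no member holds. TGACGCAA was found at -250 in Chac1, outside the stretch shown, and in 0.490% of all windows, and was dropped. TGATGNAAN and TTGCATCA overlapped the TGATGNAA matches and were dropped as well. Of these strings, the capitals mark only letters that also match TGATGNAA. Matching letters are a description of these windows and say nothing about binding in these cells.

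The largest rise belonged to a transcription factor. Ddit3 (probe set 17237978) encodes CHOP, which pairs with C/EBP proteins and takes part in cell death under lasting stress. Its log2 signals were 9.45, 9.47 and 9.46 in purmorphamine wells, against 8.52, 8.23 and 8.10 in vehicle wells. The treated wells were nearly alike, while the vehicle wells were spread, and the lowest treated value stood 0.94 above the highest vehicle value. The rise of Ddit3 was 1.18 on the log2 scale (n = 3 wells per group, SE 0.10, limma adjusted p = 7.32e-04), a fold of 2.26 with a 95% interval of 1.91 to 2.68. It held place 19 among all genes ordered by rise.

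Atf3 (probe set 17231033), a bZIP factor induced downstream of ATF4, was measured with the smallest error of the 10 relative to its change. Its signals were 10.35, 10.29 and 10.35 in purmorphamine wells, against 9.43, 9.40 and 9.46 in vehicle wells. Each group spanned only 0.06, and the groups lay 0.83 apart. Atf3 rose by 0.90 (SE 0.05, limma adjusted p = 1.53e-04), or 1.87-fold. Atf4 (probe set 17313100), whose protein heads this branch, had signals of 11.02, 11.10 and 11.12 in purmorphamine wells, against 10.42, 10.42 and 10.53 in vehicle wells. The transcript rose by 0.62 (SE 0.06, limma adjusted p = 0.0010), or 1.54-fold, and the groups were 0.48 apart. Atf5 (probe set 17490391), a relative of Atf4 whose translation is also controlled through eIF2, had signals of 10.08, 10.03 and 9.98 in purmorphamine wells, against 9.46, 9.56 and 9.56 in vehicle wells. It rose by 0.50 (SE 0.06, limma adjusted p = 0.0020), or 1.41-fold.

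**Figure D1:**
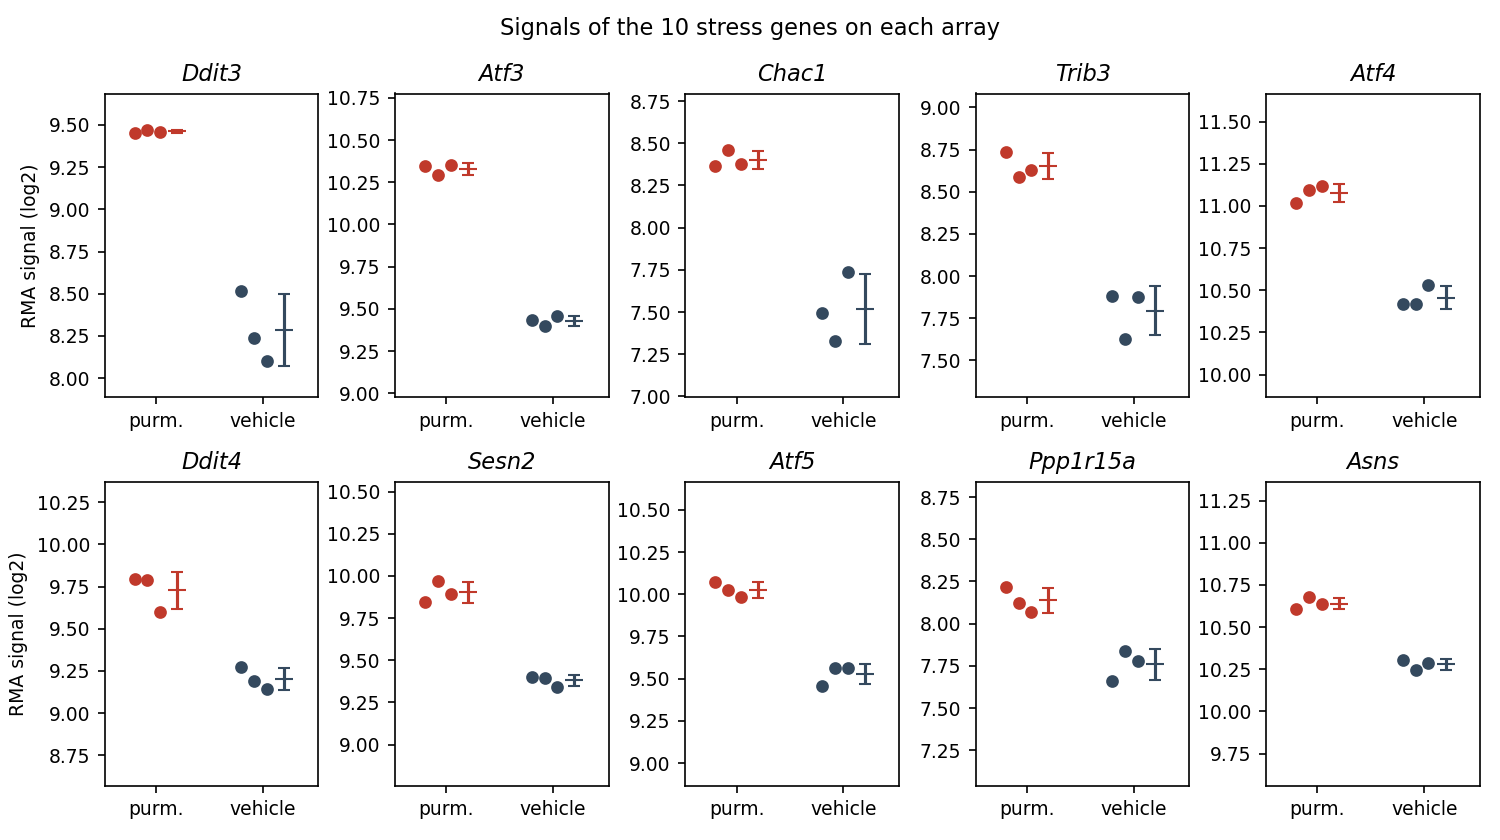
Log2 RMA signals of the 10 stress genes, 1 panel per gene with purmorphamine wells on the left and vehicle wells on the right; points are single arrays, and the bar beside them is the mean ± SD (n = 3). Every panel spans 1.8 log2 units, and in every panel the 3 purmorphamine points lie above the 3 vehicle points, by 0.94 in Ddit3 and by 0.23 in Ppp1r15a.

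Of the effector and feedback genes, Chac1 and Trib3 rose nearly as much as Atf3. Chac1 (probe set 17374807) encodes an enzyme that breaks down glutathione. Its signals were 8.37, 8.46 and 8.37 in purmorphamine wells, against 7.49, 7.33 and 7.73 in vehicle wells. The vehicle wells spread over 0.41, more than those of the other 9 genes except Ddit3, and the groups still lay 0.63 apart. Chac1 rose by 0.88 (SE 0.10, limma adjusted p = 0.0021), or 1.84-fold with a 95% interval of 1.56 to 2.18. Trib3 (probe set 17392925) encodes a pseudokinase that binds ATF4 and CHOP and restrains them. It had signals of 8.74, 8.59 and 8.63 in purmorphamine wells, against 7.88, 7.63 and 7.87 in vehicle wells, and rose by 0.86 (SE 0.09, limma adjusted p = 0.0012), or 1.81-fold. The windows of both genes hold the TGATGNAA letters printed above.

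Ppp1r15a (probe set 17490878) encodes GADD34, which directs protein phosphatase 1 to eIF2 and so ends the response. It had the smallest gap between the groups, 0.23. Its signals were 8.22, 8.12 and 8.07 in purmorphamine wells, against 7.66, 7.84 and 7.78 in vehicle wells. Ppp1r15a rose by 0.38 (SE 0.07, limma adjusted p = 0.012), or 1.30-fold, and had the largest adjusted p of the 10. With 1 array left out its adjusted p reached 0.047.

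Asns (probe set 17464718), asparagine synthetase, is the textbook target of ATF4 under amino acid shortage and rose least. It had signals of 10.61, 10.68 and 10.64 in purmorphamine wells, against 10.30, 10.24 and 10.29 in vehicle wells. Both groups were tight, with SDs of 0.03 and 0.03, and lay 0.30 apart. Asns rose by 0.36 (SE 0.05, limma adjusted p = 0.0043), or 1.28-fold.

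Sesn2 and Ddit4 encode brakes on the growth kinase complex mTORC1, sestrin 2 as a sensor of leucine and REDD1 through the TSC complex. Sesn2 (probe set 17430861) had signals of 9.84, 9.97 and 9.89 in purmorphamine wells, against 9.40, 9.39 and 9.34 in vehicle wells. It rose by 0.52 (SE 0.06, limma adjusted p = 0.0015), or 1.44-fold. Ddit4 (probe set 17241032) had signals of 9.80, 9.79 and 9.60 in purmorphamine wells, against 9.27, 9.19 and 9.14 in vehicle wells. Treated replicate 3 was lower than the other treated wells and 0.32 above the highest vehicle well, and Ddit4 rose by 0.52 (SE 0.07, limma adjusted p = 0.0043), or 1.44-fold.

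Ordered by size of difference, the genes ran Ddit3, Atf3, Chac1, Trib3, Atf4, Ddit4, Sesn2, Atf5, Ppp1r15a and Asns. The 95% intervals of all neighbours in this order overlapped. The interval of Ddit3, 0.93 to 1.42, and that of Atf3, 0.78 to 1.02, lay wholly above the interval of Atf4, 0.48 to 0.76, and those of the 5 genes after it. Differences on RMA signals are compressed in dim genes, and the dimmest vehicle mean of the set was 7.52 in Chac1, above the array medians of 6.34 to 6.39. An exact permutation test of each gene, two-sided over the 6 arrays, gave p = 0.1 in all 10, the smallest that 3 against 3 arrays can give. Groups that do not overlap always give this value, so it adds nothing to the separation given above. All 10 calls held with each array left out in turn and under every other alternative of the fit. With an added requirement of 1.5-fold, 5 calls were left.

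**Figure D2:**
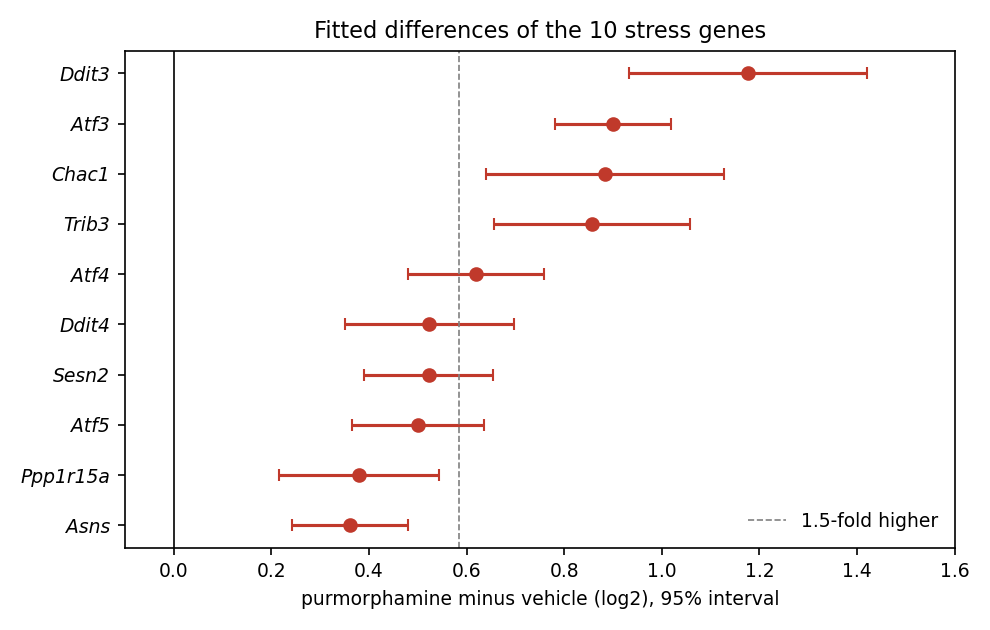
Fitted differences, purmorphamine minus vehicle on the log2 scale, for the 10 stress genes in order of size, with 95% intervals from limma (n = 3 per group). All intervals lie above 0, and the dashed line marks a 1.5-fold rise; the points of Ddit3, Atf3, Chac1, Trib3 and Atf4 lie to its right.

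Upstream of ATF4, of 17 measured genes of eIF2 kinases and eIF2 control, 3 rose and 0 fell, 17.6% and 0% beside 7.18% and 7.16% of all genes, with a median of 0.05. Impact, which restrains the amino acid sensor kinase GCN2, rose by 0.55 (limma adjusted p = 0.0011). Eif2ak3, the kinase PERK of the endoplasmic reticulum, rose by 0.38 (limma adjusted p = 0.0067), with signals of 9.47 ± 0.07 in purmorphamine wells and 9.09 ± 0.05 in vehicle wells (SD, n = 3). Eif2a, an initiation factor distinct from the eIF2 subunits, rose by 0.28, a call kept with 1 array left out only without purmorphamine replicate 2 (adjusted p from 0.068 to 0.092 in the other 5 cases). The remaining kinases did not pass the test: Eif2ak2, which encodes PKR, had -0.27 (limma adjusted p = 0.053), Eif2ak1, which encodes HRI, 0.11 and Eif2ak4, which encodes GCN2, 0.04.

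ATF4 and CHOP act as dimers, and of 19 measured genes listed as bZIP and C/EBP partners 4 rose and 1 fell, with a median of 0.08. The list takes in bZIP factors broadly, and which of them pair with ATF4 or CHOP was not measured. These are 21.1% and 5.26%, beside 7.18% and 7.16% of all genes, so the share that fell was near that of all genes. Jund, an AP-1 subunit, rose by 0.41, although by 0.30 when its probe sets were averaged, and Nfe2l1, a regulator of proteasome genes, by 0.37. Cebpg, a dimer partner of ATF4, rose by 0.28 and Creb3, a membrane-bound bZIP factor, by 0.24. Maf, a bZIP factor of macrophages among other cells, fell by 1.41 (SE 0.06, limma adjusted p = 5.68e-05). Cebpb, another partner, had 0.18 and did not pass (limma adjusted p = 0.063). Cebpg missed the test without purmorphamine replicate 2 or 3 or vehicle replicate 1 or 2 (adjusted p from 0.067 to 0.071), and Creb3 without any array except vehicle replicate 1 (0.064 to 0.088). The count of calls was 3 without purmorphamine replicate 2, without purmorphamine replicate 3 or without vehicle replicate 2.

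Other ATF4 targets of amino acid and one-carbon metabolism had the highest median of the 9 pathway lists, 0.23: 11 of 21 measured rose and 0 fell. This is 52.4% called higher, beside 7.18% of all genes. Slc7a11, the cystine and glutamate antiporter, rose by 1.92 (SE 0.06, limma adjusted p = 1.89e-05). It averaged 11.93 ± 0.06 in purmorphamine wells and 10.01 ± 0.07 in vehicle wells (SD, n = 3), and rose by 1.71 when its probe sets were averaged. The mitochondrial folate enzymes Aldh1l2 and Mthfd2 rose by 1.28 and 0.61, and the proline pathway enzyme Aldh18a1 by 0.51. Among genes picked after their values were seen, the glutamine carrier Slc38a2 rose by 0.46, the transaminase Gpt2 by 0.45, the cysteine-forming enzyme Cth by 0.43 and the transporter chain Slc3a2 by 0.40. The serine synthesis genes Phgdh, Psph and Psat1, in the same way picked, had 0.16, 0.05 and -0.03 and did not pass, nor did Shmt2 with 0.06 or the leucine carrier Slc7a5 with -0.03. Slc1a4, Got1 and Slc7a1 rose by 0.27, 0.23 and 0.23. With 1 array left out these 3 calls were lost for Got1 in all 6 cases, for Slc1a4 in all but that without vehicle replicate 1 and for Slc7a1 in all but that without vehicle replicate 3 (adjusted p from 0.055 to 0.117).

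Of 24 measured further stress outputs of ATF4 and CHOP, 9 rose and 1 fell, 37.5% and 4.17% beside 7.18% and 7.16% of all genes, with a median of 0.16. Sqstm1, an autophagy receptor, rose by 0.68, Klhl24 by 0.67, Vldlr, a lipoprotein receptor, by 0.67 and Herpud1, of protein degradation at the endoplasmic reticulum, by 0.65. Rab32, a small GTPase, fell by 0.63, with signals of 10.58 in purmorphamine wells and 11.21 in vehicle wells on average. Of genes picked after their values were seen, 3 that encode BH3-only proteins did not pass the test: Pmaip1, which encodes NOXA, had 0.16, Bbc3, which encodes PUMA, 0.10 and Bcl2l11, which encodes BIM, -0.20. The stress factor Nupr1 rose by 0.38, while the secreted factor Fgf21 had 0.12 and did not pass. Fgf21 was dim, with means of 5.92 in purmorphamine wells and 5.80 in vehicle wells, under the array medians of 6.34 to 6.39. Rhbdd1 and Vegfa rose by 0.48 and 0.35. Ero1a, an oxidase induced by CHOP, rose by 0.21, a call lost in all 6 cases of leaving out an array (adjusted p 0.055 to 0.087). Atg12 rose by 0.31 and missed the test without purmorphamine replicate 1, vehicle replicate 1 or vehicle replicate 3 (0.056 to 0.059).

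The branches of the unfolded protein response that run through ATF6 and XBP1 gave 4 rises and 0 falls among 19 measured targets, 21.1% and 0% beside 7.18% and 7.16% of all genes, with a median of 0.01. Dnajb9, a cochaperone of the endoplasmic reticulum, rose by 0.76 (SE 0.09, limma adjusted p = 0.0020), Sec24d, of the vesicle coat, by 0.58 and Syvn1, a ubiquitin ligase, by 0.30. Derl1, of the same degradation path, rose by 0.27 but missed the test without any array except vehicle replicate 1 (adjusted p from 0.061 to 0.082). The chaperones did not pass: Hspa5, which encodes BiP, had 0.06, Hsp90b1 -0.03 and Calr -0.07. Xbp1 itself had 0.01. Whether this list differed from the ATF4 and CHOP genes as a list was not tested.

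**Figure D3:**
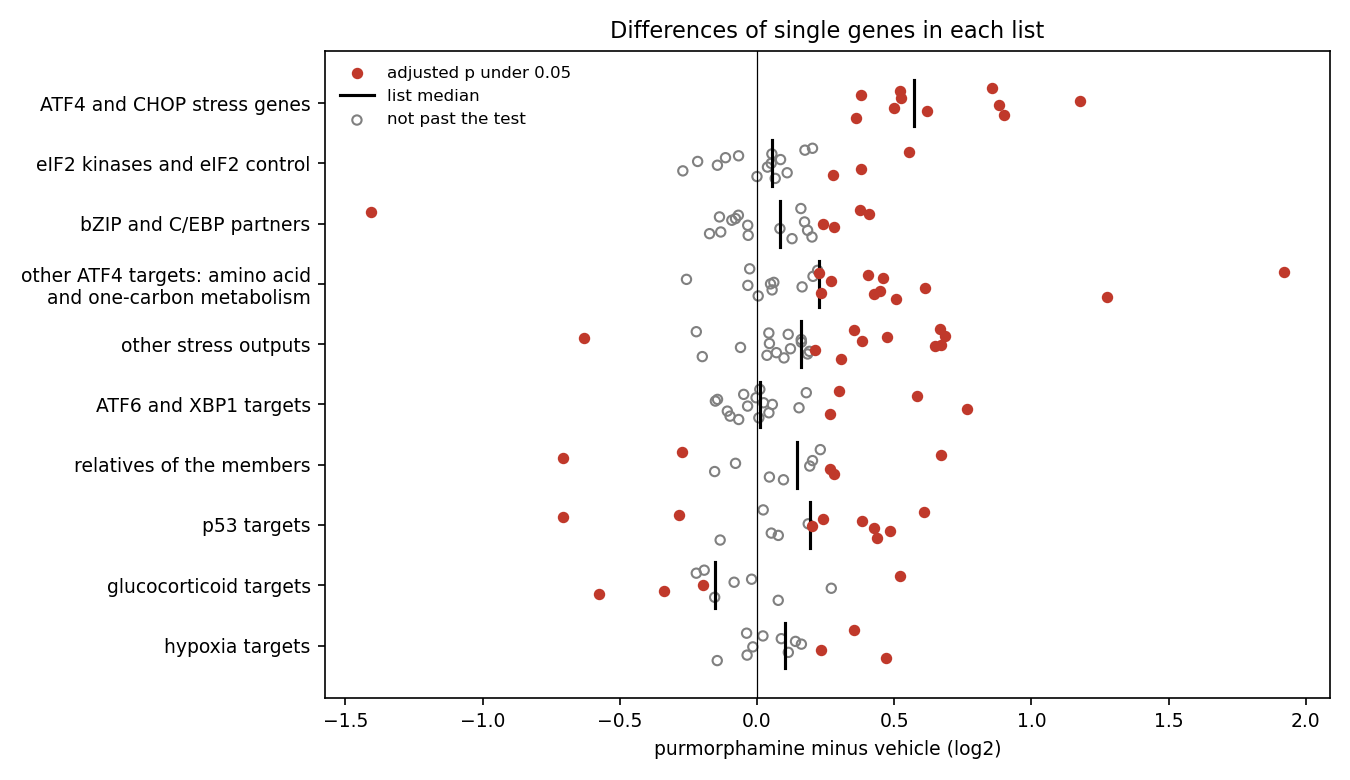
Differences of single genes, purmorphamine minus vehicle on the log2 scale, for the ATF4 and CHOP stress genes at the top and 9 other lists; filled points passed limma at an adjusted p under 0.05, open points did not, and the vertical bar is the median of the list. The stress genes lie between 0.36 and 1.18, while the medians of the other lists lie between -0.15 and 0.23.

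Relatives of the stress genes did not move alike. Of 12 measured, 3 rose and 2 fell, 25% and 16.7% beside 7.18% and 7.16% of all genes. Sesn3 rose by 0.67 (limma adjusted p = 8.02e-04), whereas Sesn1 fell by 0.71 (limma adjusted p = 0.0038), beside the rise of Sesn2 by 0.52. Sesn1 had signals of 8.00 ± 0.12 in purmorphamine wells and 8.70 ± 0.15 in vehicle wells (SD, n = 3). Trib1, a relative of Trib3, fell by 0.27 and missed the test without purmorphamine replicate 2 or 3 or vehicle replicate 2 or 3 (adjusted p from 0.058 to 0.073), and Trib2 had 0.23 and did not pass. Creb3l2 rose by 0.27, beside Cebpg. Ppp1r15b, the constantly expressed relative of Ppp1r15a, had 0.20 and did not pass (limma adjusted p = 0.065). The count of calls was 3 without purmorphamine replicate 2, purmorphamine replicate 3 or vehicle replicate 2.

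Ddit4, Sesn2 and Atf3 are known to respond to other signals as well, among them p53, glucocorticoids and low oxygen. Of 14 measured p53 targets 7 rose and 2 fell, 50% and 14.29% beside 7.18% and 7.16% of all genes, with a median of 0.19. Trp53inp1 rose by 0.61, Eda2r by 0.48, Btg2 by 0.44 and Plk2 by 0.38, while the defining target Cdkn1a had 0.05 and did not pass. Fas, Polk and Mdm2 rose by 0.43, 0.24 and 0.20, and Tigar fell by 0.28 beside Sesn1. With 1 array left out Mdm2 missed the test in all 6 cases, Polk in all but that without purmorphamine replicate 2, and Fas and Tigar without purmorphamine replicate 1 or 3 or vehicle replicate 1 or 2 (adjusted p from 0.055 to 0.134). The count of p53 target calls was then 5 without purmorphamine replicate 1, purmorphamine replicate 3, vehicle replicate 1 or vehicle replicate 2. Their part in the rises of the stress genes was not tested.

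Glucocorticoid targets showed 1 rise and 3 falls among 11 measured, with a median of -0.15. The rise makes 9.09%, near the 7.18% of all genes, and the falls 27.3%, beside 7.16%. The kinase gene Sgk1 rose by 0.52, and Errfi1 and Fkbp5 fell by 0.58 and 0.34. Mt1, whose close copy Mt2 makes it uncertain as a separate signal, fell by 0.20, a call lost in each of the 6 leave-one-out fits (adjusted p 0.081 to 0.109). Tsc22d3, a direct target, had -0.22 and did not pass. Of 12 hypoxia targets 3 rose and 0 fell, 25% and 0% beside 7.18% and 7.16% of all genes, with a median of 0.10. They were Bnip3 (0.47), Vegfa (0.35) and Higd1a (0.23), and Higd1a missed the test without any array except vehicle replicate 1 (0.076 to 0.103). Ndrg1 had 0.16 and did not pass (limma adjusted p = 0.105).

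The genes most like Ddit3 over the 6 arrays were sought by the root mean square distance between profiles, after each gene's vehicle mean was subtracted, among 10481 named genes with a mean signal above that of the median gene. Nearest was Pck2, mitochondrial phosphoenolpyruvate carboxykinase, at a distance of 0.099 log2 units. Pck2 had signals of 10.52, 10.52 and 10.52 in purmorphamine wells, against 9.47, 9.33 and 9.38 in vehicle wells. Then came the protease inhibitor gene Serpina3n (0.103), the matrix protein gene Adamtsl3 (0.104), Aldh1l2 (0.111) and the Sprouty gene Spry3 (0.117). Serpina3n belongs to a cluster of close copies and is uncertain as a separate signal. All 5 were higher in every purmorphamine well than in every vehicle well, by 1.04 to 1.28 log2 units on average. This follows from picking genes near to Ddit3 and is not a separate result. Of the other stress genes, Atf3 (0.235), Trib3 (0.266) and Chac1 (0.291) were nearest to Ddit3, at ranks 40, 52 and 66 had they been among the genes searched, and Ppp1r15a (0.589) was farthest.

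**Figure D4:**
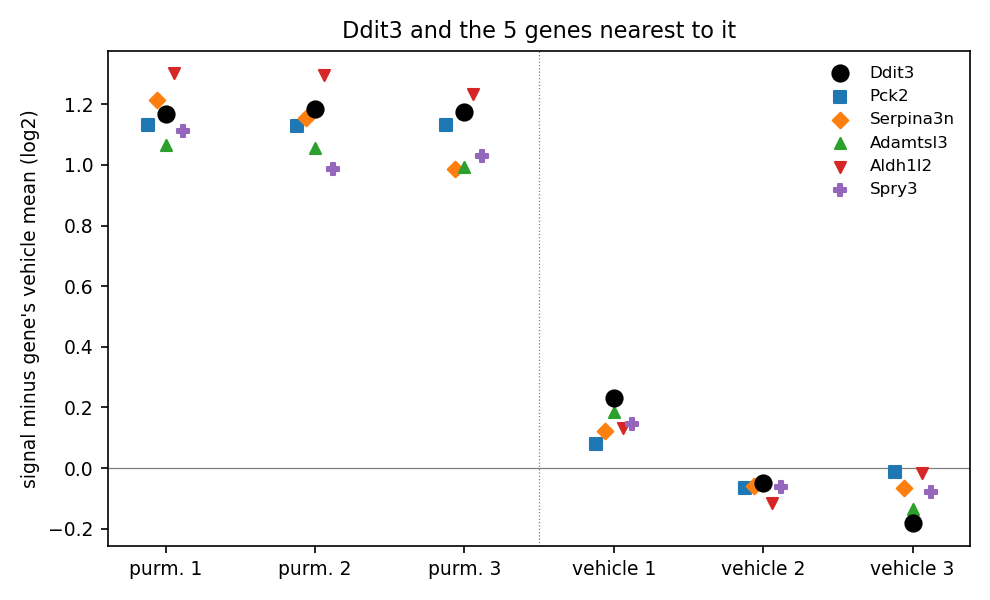
Log2 signal minus the gene's vehicle mean on each of the 6 arrays, for Ddit3 and the 5 genes nearest to it; purmorphamine arrays are left of the dotted line and vehicle arrays right of it. In all 6 genes the 3 purmorphamine points lie above the 3 vehicle points, which follows from the choice by nearness to Ddit3. The vehicle points spread most in Ddit3.

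Markers of several cell types were present beside the fibroblast label, and their counts of calls stand beside 7.18% of all genes called higher and 7.16% called lower. Of 15 fibroblast markers 8 rose and 2 fell (53.3% and 13.3%), among them Pdgfra (0.83), Col1a2 (0.48) and Dcn (0.46), while S100a4 fell by 0.35 and Thy1 by 0.32, and their summed linear signal was 37705 to 39612 in purmorphamine wells against 33204 to 34297 in vehicle wells. Of 15 leukocyte markers Itgax rose by 0.31 and 5 fell, which were Itgam (-1.46), Coro1a (-0.71), Csf1r (-0.63), Mrc1 (-0.62) and Adgre1 (-0.37), or 6.67% higher, near the share of all genes, and 33.3% lower. Over all 15 leukocyte markers, 6 differences lay above 0 and 9 below 0, and most did not pass the test. The leukocyte markers had summed signals of 61421 to 63409 in purmorphamine wells against 66659 to 67085 in vehicle wells. The macrophage and granulocyte gene Lyz2 was bright in both groups, at 14.01 in purmorphamine wells and 13.96 in vehicle wells. Of 10 endothelial markers 4 rose, Vwf (0.50), Tie1 (0.36), Cdh5 (0.34) and Pecam1 (0.30), and 0 fell (40% and 0%). Cdh5 missed the test without purmorphamine replicate 2 or 3 (adjusted p 0.052 to 0.053), and Tie1 without purmorphamine replicate 1 or 3 or vehicle replicate 2 or 3 (0.082 to 0.104). The endothelial markers had sums of 5155 to 5361 in purmorphamine wells against 4466 to 4731 in vehicle wells. Of 10 epithelial markers Epcam rose by 0.50 and 0 fell, 10% and 0%, near the shares of all genes. Sftpc, Sftpb and Cdh1 had -0.25, -0.10 and -0.04 and did not pass. Sftpc and Sftpb were dim. They averaged 6.15 and 6.25 in purmorphamine wells, under the array medians of 6.34 to 6.39. In vehicle wells they lay close to these medians. Most of the 10 epithelial markers lay under or near these medians in both groups. Cdh1, Epcam and the other brighter markers weighed most in the sums. The epithelial markers had sums of 4472 to 4521 in purmorphamine wells against 4378 to 4508 in vehicle wells, and the club cell marker Scgb1a1 lay under the lower quartile of all arrays. The part of these shifts in the rises of the stress genes was not tested.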

How the data were processed

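RNA of 6 culture wells was measured, 1 array per well. The authors deposited log2 values for single arrays, not pooled. Per the submitters' processing notes, oligo, RMA and limma were used; versions are not given. RMA equalises the distributions of arrays, which hides any shift shared by all genes. Of 41345 probe sets, 23521 had exactly 1 gene symbol in the platform annotation and were kept, and per gene the probe set with the highest mean was used, which left 22180 genes. Differences, purmorphamine minus vehicle, were fitted with limma 3.58.1 in R 4.3.3 (lmFit and eBayes, no block, two-sided, Benjamini-Hochberg over all genes, called at an adjusted p under 0.05) and tested on simulated data. Precision is limited by the number of arrays, and the median SE of a difference was 0.07. The members and lists were chosen with earlier results of these data known, so their shares beside those of all genes are descriptions. The text names all members, the 4 genes of smallest p of each list and the 5 genes nearest to Ddit3. It also names every called gene of a list with 5 or fewer calls. Other genes were named after their values were seen. Of the 9 pathway lists' 141 measured genes, 8 stand in more than 1 list. Listed genes without a probe set of their own were not analysed here. The labels do not say that wells of equal replicate number are paired, so the block is an alternative only. Further alternatives were median centring, quantile normalization, removal of the dimmest genes (a share of 0.333), a linear offset of 50, averaging or separately testing probe sets of 1 gene, eBayes with trend and robust, array weights, each array left out, an adjusted p under 0.1 and a fold of at least 1.5. Python 3.11.15 with scipy 1.17.1 and matplotlib 3.10.9 was used for permutation tests, promoter searches and plots.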

Additional observations from a re-analysis of the deposited data

How the results depend on the processing

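All 10 stress genes stayed called and higher in the 15 refits each had, with adjusted p up to 0.047 (Ppp1r15a, 1 array left out), and 0 were called lower. With at least 1.5-fold also required, 5 stayed called, and calls fell to 525 over all genes (from 3181), 0 of the eIF2 list, 1 of the bZIP partners, 3 of the other ATF4 targets, 5 of the stress outputs, 1 of the ATF6 and XBP1 targets, 2 of the relatives, 2 of the p53 targets, 0 of the glucocorticoid targets and 0 of the hypoxia targets. In fits of 5 arrays, 1 left out and so fewer samples, calls over all genes ran from 1967 to 2374, those of bZIP partners from 3 to 4, of relatives from 3 to 5 and of p53 targets from 5 to 8, against 5, 5 and 9 with all arrays. With a linear offset of 50, calls were 7 of the eIF2 list (3 without it), 9 of the bZIP partners, 7 of the ATF6 and XBP1 targets (4 without it), 7 of the glucocorticoid targets (4 without it) and 5 of the hypoxia targets (3 without it). Without the dimmest genes (a share of 0.333) they were 7, 9 and 7 of the eIF2, bZIP and glucocorticoid lists. With trend and robust fitting they were 7, 8, 7 and 6 of the eIF2, bZIP, ATF6 and XBP1, and hypoxia lists, and at an adjusted p under 0.1 they were 7 of the eIF2 list and 9 of the bZIP partners. Over all genes, calls rose as well, from 3181 to 4456 with the offset and to 4342 without the dimmest genes. Calls over all genes were 4697 with trend and robust fitting and 4554 at an adjusted p under 0.1. The causes were not tested. Reversals were those of genes near 0: Xbp1, 0.01 in the fit with all arrays, had -0.00253 after median centring and ranged from -0.034 to 0.052 with 1 array left out. Cdh1, -0.04 before, had 1.76e-04 when its probe sets were averaged. Scgb1a1, -0.05 before, ranged from -0.19 to 0.15 with 1 array left out. Of the 1483 values of other named genes, 1360 kept direction and call. Deviations from the group means, over genes, correlated between equal replicate numbers at 0.106, 0.024 and 0.103, and every array correlated best with its own number, a hint from the data and not the design. With the replicate number as a block, 2432 genes and all 10 stress genes were called, while 13 of the 71 other named calls were lost (adjusted p from 0.052 to 0.087): Eif2a, Creb3, Slc1a4, Got1, Slc7a1, Ero1a, Derl1, Trib1, Polk, Mdm2, Mt1, Higd1a and Cdh5. The number of arrays, 3 against 3, limits the precision.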
